A study of Mus musculus with 2 samples.

Results

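Internal alternative promoter peaks are sites of open chromatin at annotated transcription start sites (TSSs) that lie inside a protein-coding gene, away from the 5′ end of that gene. On chromosomes 1 to 19, a peak was a member when its midpoint lay within 500 bp of the TSS of a protein-coding transcript that starts more than 5000 bp downstream of the 5′ end of its own gene and more than 2000 bp from the 5′ end of every other gene. Replicate 1 held 886 such peaks among 28969 on these chromosomes (3.06%), in 645 genes. Replicate 2 held 1493 among 64912 (2.30%), in 1002 genes. The mean number was 1189.5 ± 429 (SD, n = 2). The rule used positions and the annotation only, and not signal, sharing between replicates, base composition or footprints. These can still go with position, as the values at gene 5′ ends and in introns below show.

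The peaks come from DNase-seq of the frontal cortex of female B6CASTF1/J mice aged 36 days, a first-generation cross that carries 1 genome of each parental strain in every cell. The labels give 1 group with 2 biological replicates, no treatment and no other genotype. The tissue sample records differ but name the same donor, so the labels do not say whether 2 animals were used, and the spread between replicates may be technical. Over all chromosomes the peak lists held 29700 and 66512 peaks, and replicate 2 was the larger in every class of peak. At the 5′ ends of marker genes, 3 of 7 markers of excitatory neurons had a peak in replicate 1 and 6 in replicate 2, and none of 7 liver markers had one in either. Of 7 markers each, 0 and 1 had a peak for inhibitory neurons, 3 and 4 for astrocytes, 1 and 3 for oligodendrocytes, 1 and 2 for microglia and 0 and 1 for vascular cells.

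Many genes carry more than 1 promoter. A promoter inside the gene skips the first exons, so its transcript can have another leader with the same coding sequence, or encode a protein that lacks its amino-terminal part. Neurons are known for this: brain-derived neurotrophic factor, phosphodiesterases and ankyrins each start from several promoters. An active promoter is usually free of nucleosomes just upstream of its start, which is what DNase I cleavage reads. Promoters fall into a class rich in CpG dinucleotides, often active in many tissues, and a class poor in them, more often restricted to particular cells. DNase I cleavage does not show which transcripts were made.

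The sequences of 8 internal promoters are shown, to put letters beside the base composition and motif counts given later: 2 of neuronal genes chosen for their known internal starts (Nrxn3 and Pde4d) and 6 of the 10 genes with the highest mean signal percentile of a shared peak. Each is the stretch upstream of the internal start that lies inside the peak and in no annotated exon, up to 150 bases, 5′ to 3′ on the strand of the gene, from GRCm38. Stretches under 40 bases are not shown. This left out Aktip, Glo1 and Bicdl1, the top 3 of those 10 genes, and Zmynd8. Their strongest starts are not CpG-rich, whereas those of the 6 shown are (thresholds below). By its starts the set shown is thus the CpG-rich part of the 10. Around the peak midpoint, however, the strongest Aktip peak was CpG-rich in both replicates and the Bicdl1 peak in replicate 1. These letters are those of the reference genome, not of both parental strains. Capitals mark exact matches, on either strand, to the GC box bound by SP and KLF factors (GGGCGG), the CCAAT box bound by NF-Y (CCAAT, or ATTGG on the other strand) and the core of the CTCF motif (AGGGGGC, or GCCCCCT on the other strand), out of 14 motifs searched. In Hdac4 a CTCF core overlaps a GC box. The intervals are chr12:89812333-89812482 for Nrxn3, chr13:109926694-109926843 for Pde4d, chr1:92180342-92180491 (minus strand) for Hdac4, chr6:83914241-83914366 for Zfp638, chr14:21500703-21500852 for Kat6b, chr12:76837361-76837413 for Fntb, chr9:100643298-100643447 for Stag1 and chr9:67043963-67044112 (minus) for Tpm1.
Nrxn3: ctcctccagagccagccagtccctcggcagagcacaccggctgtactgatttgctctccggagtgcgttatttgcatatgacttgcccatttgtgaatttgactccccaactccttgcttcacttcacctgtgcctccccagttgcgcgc
Pde4d: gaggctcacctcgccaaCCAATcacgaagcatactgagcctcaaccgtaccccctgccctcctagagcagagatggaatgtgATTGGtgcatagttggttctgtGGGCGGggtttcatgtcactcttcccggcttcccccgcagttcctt
Hdac4: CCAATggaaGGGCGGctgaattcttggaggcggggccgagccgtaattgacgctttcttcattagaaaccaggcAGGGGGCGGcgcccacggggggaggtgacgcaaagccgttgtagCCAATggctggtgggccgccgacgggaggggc
Zfp638: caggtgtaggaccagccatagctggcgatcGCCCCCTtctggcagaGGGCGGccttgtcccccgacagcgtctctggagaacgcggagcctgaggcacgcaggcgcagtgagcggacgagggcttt
Kat6b: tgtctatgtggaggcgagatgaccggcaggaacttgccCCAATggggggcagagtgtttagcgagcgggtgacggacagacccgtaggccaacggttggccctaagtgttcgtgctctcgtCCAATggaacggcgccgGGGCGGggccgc
Fntb: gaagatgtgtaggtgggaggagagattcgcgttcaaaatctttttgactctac
Stag1: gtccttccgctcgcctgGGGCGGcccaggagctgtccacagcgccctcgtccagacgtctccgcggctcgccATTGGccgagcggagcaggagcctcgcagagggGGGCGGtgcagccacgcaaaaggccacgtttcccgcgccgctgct
Tpm1: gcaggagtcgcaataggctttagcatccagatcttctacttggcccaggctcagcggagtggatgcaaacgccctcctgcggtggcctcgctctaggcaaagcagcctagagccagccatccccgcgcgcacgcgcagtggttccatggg

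The printed stretches differed widely in CpG content. That of Stag1 held 18 CpG dinucleotides and 2 GC boxes, and that of Kat6b 14 CpGs, 1 GC box and 2 CCAAT boxes. The Hdac4 stretch held 13 CpGs with 2 GC boxes and 2 CCAAT boxes. The Nrxn3 stretch held 6 CpGs and no match to any of the 14 motifs. Pde4d, the other neuronal example, had 1 GC box and 2 CCAAT boxes with 6 CpGs. Tpm1 and Fntb held no match either, although the Fntb stretch is only 53 bases long. Stretches with and without a match thus occurred both among the neuronal genes and among the other 6. A match is a description of the letters and no match says only that these letters are not in this window.

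The rule admits midpoints up to 500 bp on either side of a start and takes the nearest start, so positions near a start follow in part from it and are given as a description. The median midpoint lay 6.5 bp upstream of the nearest internal start in replicate 1 and 16 bp upstream in replicate 2. Within 100 bp of it lay 469 of the 886 midpoints in replicate 1 (52.9%) and 752 of 1493 in replicate 2 (50.4%). The peak itself covered the start in 57.7% and 57.5%. Midpoints fell off on both sides and reached a low level beyond 300 bp, where the members just inside the 500 bp limit (400 to 500 bp away) numbered 66 and 132. In the next 100 bp outside it there were 51 and 103 peaks that met the other conditions. The peaks just inside had a median signal percentile of 31.8 and 48.6, those just outside 40.2 and 49.0. Members were 239.5 and 247 bp wide at the median, and 7.34% and 6.50% of them overlapped another peak of their own list, so neighbouring members of a gene are not independent.

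**Figure D1:**
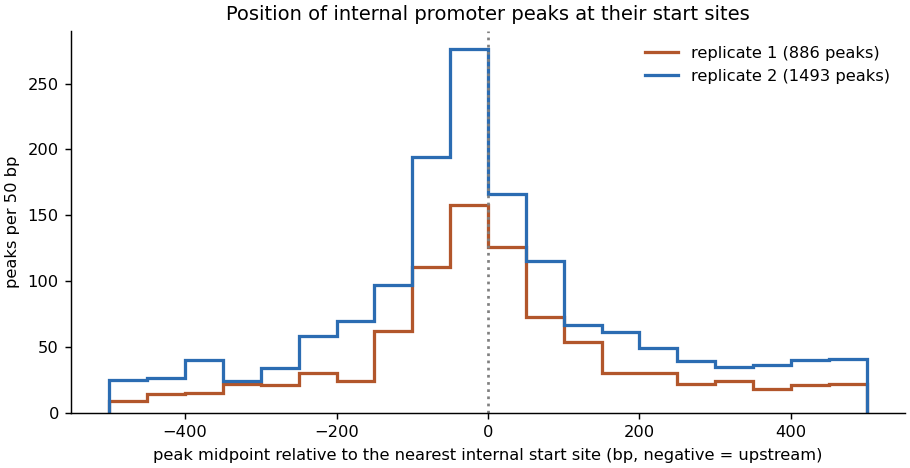
Number of internal promoter peaks (y axis, per 50 bp) by the distance of the peak midpoint from the nearest internal start site (x axis, bp, negative upstream), for replicate 1 (886 peaks) and replicate 2 (1493 peaks). Both replicates have their highest bin in the 50 bp just upstream of the start, with 158 and 276 peaks.

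In strength the members stood between the peaks at gene 5′ ends and those in introns. The authors' signal is a cleavage density normalized for read depth, and a signal percentile ranks a peak against all others of the same list, with 100 at the top. In bulk tissue, fewer cells with an open site and less opening per cell cannot be told apart. The median signal of members was 1.39 in replicate 1 and 1.61 in replicate 2, at percentiles 51.8 and 65.3. Peaks at the 5′ ends of protein-coding genes had median percentiles of 71.7 and 84.4. Intronic distal peaks, which lie in a protein-coding gene outside exons and more than 1000 bp from any TSS, had 38.0 and 42.5. The order of the 3 classes was the same in both replicates. Over the replicates the members' median percentile was 58.6 ± 9.55, that of 5′ ends 78.0 ± 9.02 and that of intronic distal peaks 40.3 ± 3.18 (SD, n = 2). The single members were spread over the whole range: 64 in replicate 1 (7.22%) and 217 in replicate 2 (14.5%) ranked in the top 10% of their list, and 47.6% and 35.0% below its median.

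Most members of replicate 1 had a partner in replicate 2, that is, a peak that shares 1 bp or more with them. The share was 91.5% (89.5 to 93.2%, a 95% Wilson interval), beside 92.5% of all replicate 1 peaks, 92.6% of those at gene 5′ ends and 94.0% of the intronic distal ones, so the members were the lowest, with an interval that takes in the first 2 of these values. Of the replicate 2 members 53.2% (50.7 to 55.8%) had a partner, beside 40.7% of all replicate 2 peaks, 75.9% of those at gene 5′ ends and 24.9% of the intronic distal ones, so the order of the last 2 classes was the opposite of that in replicate 1. Sharing rose with rank. Among replicate 2 members at percentiles 0 to 20 it was 9.09%, where all peaks had 3.94%, and at percentiles 80 to 100 it was 91.2%, where all peaks had 94.9%. In the middle band of 40 to 60 the members had 32.3% and all peaks 30.4%. Unshared members of replicate 2 had a median signal of 1.05 and shared ones 2.48. All of these intervals cover counting error only.

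Where a member had a partner, the signal was higher in replicate 2. For the 811 replicate 1 members with a partner, signal in replicate 2 exceeded that in replicate 1 by 0.75 at the median on the log2 scale (quartiles 0.51 and 0.95), which is 1.68-fold. It was the higher of the pair in 98.0%, beside 96.5% of all replicate 1 peaks with a partner. At gene 5′ ends the median log2 ratio was 0.78 and at intronic distal peaks 0.61. Signal is thus compared here between genes within a replicate, or by rank.

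Members were richer in CpG than most peaks. A peak was called CpG-rich when the 300 bp around its midpoint had an observed to expected CpG ratio of at least 0.6 and a GC share of at least 50%. This held for 565 of the 886 replicate 1 members (63.8%, 60.6 to 66.9%) and 705 of the 1493 in replicate 2 (47.2%, 44.7 to 49.8%). Over all peaks it held for 47.6% and 26.9%, at gene 5′ ends for 85.7% and 81.2%, and at intronic distal peaks for 5.86% and 2.99%. The members thus mixed both promoter classes, and replicate 2 added mostly CpG-poor ones: among its members 63.9% of the shared and 28.2% of the unshared were CpG-rich.

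The 2 classes of members differed in strength in both replicates and in sharing mainly in replicate 2. In replicate 2 the 705 CpG-rich members had a median percentile of 77.1 and 72.1% had a partner, whereas the 788 others had 51.8 and 36.4%. In replicate 1 the median percentiles were 59.4 for the CpG-rich and 42.3 for the others, and the shares with a partner, 92.6% and 89.7%, were close. The same split at gene 5′ ends of replicate 2 gave 87.4 and 59.8, with 81.0% and 54.0% shared. CpG-poor intronic distal peaks of replicate 2 had a median percentile of 42.0, with 24.3% shared. So within each class of base composition the members ranked below gene 5′ ends and above intronic distal peaks in replicate 2.

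Footprints are short stretches inside a peak that are cut less than their surroundings, as under a bound protein. Of the members 81.7% (79.0 to 84.1%) in replicate 1 and 85.1% (83.2 to 86.8%) in replicate 2 held at least 1 footprint midpoint. Over all peaks it was 83.3% and 83.2%, so the share was near that of peaks in general. Gene 5′ ends had 86.8% and 88.4% and intronic distal peaks 85.5% and 86.1%, so the members were below both. In replicate 2 their interval takes in the intronic value. The density was 1.08 and 1.18 footprints per 100 bp, against 1.26 and 1.44 at gene 5′ ends and 1.12 and 1.11 at intronic distal peaks. Footprint calls followed signal: at percentiles 0 to 20 it was 41.3% of the members that held one in each replicate, and at 80 to 100 it was 99.4% and 99.3%.

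**Figure D2:**
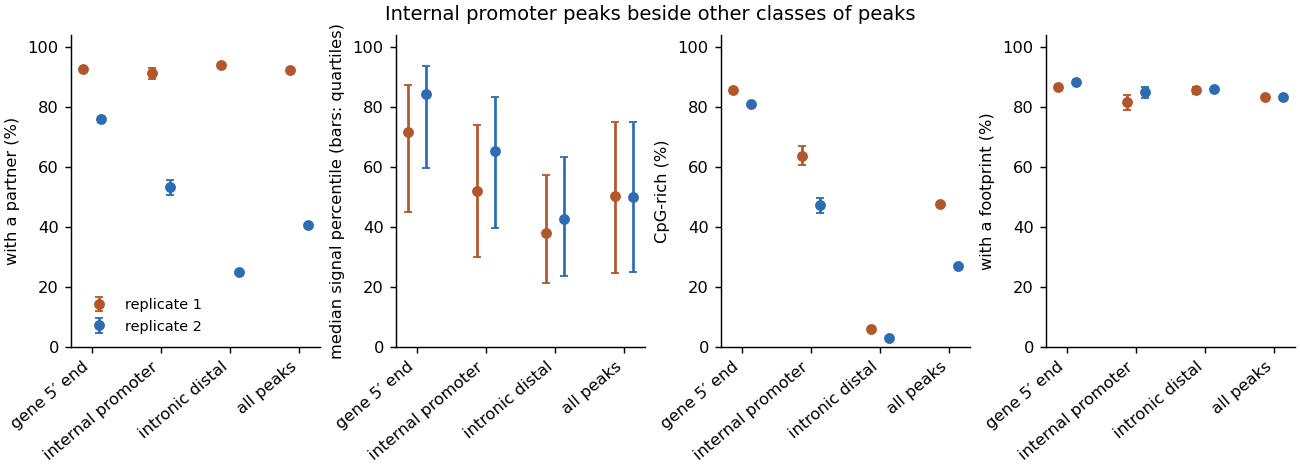
Values per replicate (points) for peaks at gene 5′ ends, internal promoter peaks, intronic distal peaks and all peaks: percent with an overlapping peak in the other replicate, median signal percentile, percent CpG-rich and percent with a footprint. Bars are 95% Wilson intervals for the percentages and quartiles for the percentile. Internal promoter peaks lie between the 5′ ends and the intronic distal peaks in the percentile and CpG panels, with 47.2% to 63.8% CpG-rich.

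For 11 of 14 short sequence motifs, the share of members lay between those of gene 5′ ends and intronic distal peaks in both replicates. The exceptions were the CTCF core, the TATA box and the MEF2 motif. The 200 bp around each midpoint were searched on both strands. The GC box (GGGCGG) was in 45.3% of replicate 1 and 39.2% of replicate 2 members, against 33.8% and 22.4% of all peaks, 56.6% and 56.9% at gene 5′ ends, and 10.8% and 8.50% of intronic distal peaks. The ETS motif (CCGGAAG), common at promoters of housekeeping genes, was in 7.67% and 5.63% of members, 14.8% and 13.3% of 5′ ends and 1.41% and 1.22% of intronic distal peaks, with 7.42% and 4.18% over all peaks. The E-box CAGATG, read by neurogenic factors such as NEUROD and NEUROG, ran the other way. It was in 11.3% and 13.3% of members, 6.19% and 6.37% of 5′ ends and 23.7% and 25.1% of intronic distal peaks, with 14.4% and 19.03% over all peaks. The AP-1 motif TGANTCA, bound by FOS and JUN, was in 4.63% and 6.76% of members, 2.23% and 2.43% of 5′ ends and 9.55% and 13.6% of intronic distal peaks, with 5.61% and 9.77% over all peaks. CCAAT was in 23.7% and 22.1% of members and 23.7% and 22.2% of all peaks. The CTCF core AGGGGGC was in 10.8% and 12.1% of members, 11.4% and 12.4% of 5′ ends and 12.6% and 7.87% of intronic distal peaks, so in replicate 1 the members were the lowest. The TATA box (TATAAA) was in 1.92% and 3.28% of members, 2.26% and 2.32% of 5′ ends and 5.12% and 6.51% of intronic distal peaks. The MEF2 motif CTAAAAATA was in 0 and 1 of the members, and in 0.102% and 0.148% of 5′ ends and 0.604% and 0.703% of intronic distal peaks.

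Within replicate 2, CpG-rich and other members carried different motifs. The GC box was in 60.3% of the CpG-rich and 20.4% of the other members, a motif that itself holds a CG. The E-box CAGATG was in 6.81% of the CpG-rich and 19.2% of the others, and AP-1 in 4.11% and 9.14%. The TATA box was rare in both, at 1.42% and 4.95%. Of matches to the NRF1 core GCATGCG inside member peaks, 70.8% in replicate 1 (of 48) and 80.6% in replicate 2 (of 72) were centred in a footprint, against 64.4% and 67.2% of the matches in all peaks. At gene 5′ ends the shares were 72.8% and 80.8%, near those of the members, and at intronic distal peaks 54.0% and 43.5%. In replicate 2, 56 of 60 matches in CpG-rich members lay in a footprint and 2 of 12 in the others. Both strands were searched, and this core can overlap its own reverse complement, so 1 site can count as 2 matches. All these NRF1 numbers thus count matches and not separate sites. In replicate 2 the core was in the 200 bp window of 39 CpG-rich and 12 other members. Whether the contrast between them holds per site was not tested. Of the GC box matches 33.2% and 39.1% were centred in a footprint, close to the 34.9% and 39.4% over all peaks. For the cyclic AMP response element TGACGTCA, the site of CREB, 10 of 16 (62.5%) and 20 of 25 (80.0%) matches were in a footprint, near the 65.0% and 76.5% over all peaks.

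The annotation offers many more internal starts than were open. On these chromosomes 9864 of 56327 protein-coding transcripts started at an eligible internal site. Starts of the same gene within 500 bp of each other were joined into 1 promoter, which gave 7292 internal promoters in 4706 genes. A peak lay at 715 of them in replicate 1 and 1211 in replicate 2. At 695 (9.53%, 8.88 to 10.2%) both replicates had one and the peaks overlapped, and these are called open in both. At 5 more the peaks of the replicates did not overlap, at 15 only replicate 1 had a peak, and at 511 only replicate 2. For comparison, 9469 of 20807 gene 5′ ends (45.5%) were open in both. Of the 6066 internal promoters with no peak, 372 had one in the authors' longer list of a replicate. The authors' cleavage table lists intervals up to an FDR of 0.05, and at promoters with no peak 97.7% in replicate 1 and 91.7% in replicate 2 had no listed interval within 500 bp. The table and the peaks come from the same libraries, so this is not independent of having no peak.

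Base composition separated open from closed internal promoters more than distance did. Of 733 promoters with a CpG-rich start (the same thresholds, at the start site) 407 were open in both (55.5%, 51.9 to 59.1%), against 288 of the 6559 others (4.39%, 3.92 to 4.91%). By distance from the gene 5′ end the share stayed between 8.70% at 50 to 100 kb and 10.8% beyond 100 kb. Quality of annotation went with it as well. Of 4593 promoters with a transcript of complete 5′ end 14.5% were open in both, and of 2699 with incomplete ones only, 1.00%. Among those both complete and CpG-rich the share was 400 of 665 (60.2%). Promoters of support level 1 or 2, the best supported transcripts, were open in both in 17.5% and the others in 3.35%. A promoter that lies in an exon of another transcript of the gene was open in 4.05%, and one outside such exons in 16.2%.

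**Figure D3:**
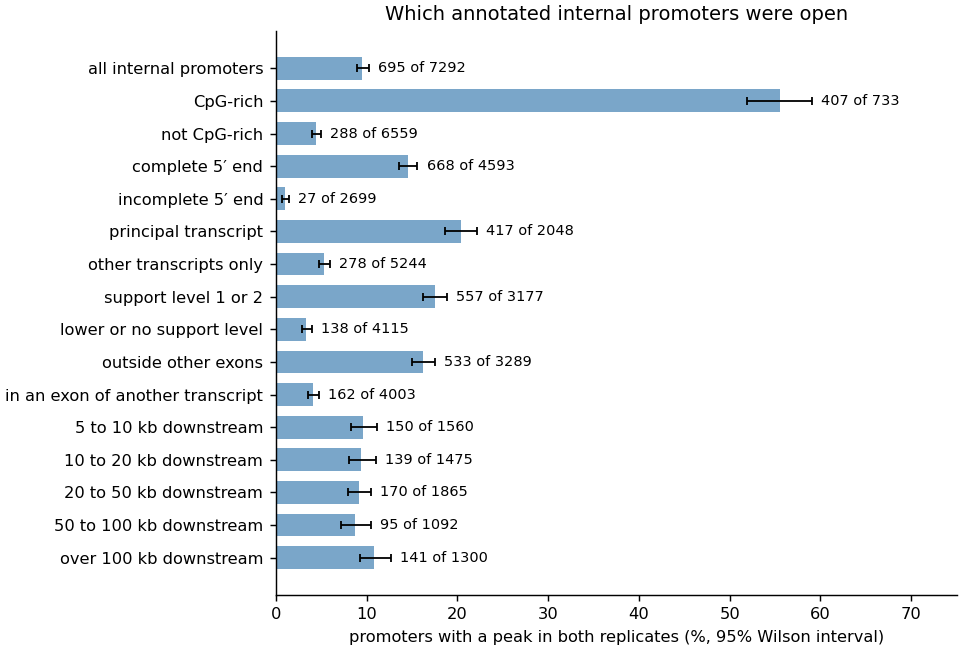
Percent of annotated internal promoters with overlapping peaks in both replicates (x axis, bars from 0, with 95% Wilson intervals that cover counting error only), by properties of the promoter, with the counts beside each bar. The bar for CpG-rich starts (55.5%) is the longest shown, and the 5 distance classes lie between 8.70% and 10.8%.

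The open promoters were spread far into the genes. The 695 open in both lay a median of 27.2 kb downstream of the gene 5′ end (quartiles 11.4 and 79.0 kb), and 141 (20.3%) lay beyond 100 kb. Promoters with no peak had a median of 25.5 kb. At 417 of the 695 (60.0%) a principal transcript starts, against 23.7% of the promoters with no peak. Principal transcripts are those that the annotation ranks as encoding a main protein isoform. A gene can have several of them with different starts, so these shares do not say which start is the main one. The 511 open in replicate 2 only were principal in 36.4% and CpG-rich in 26.6%, against 58.6% CpG-rich among those open in both.

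The state of the gene 5′ end split these promoters. Of the 695 open in both, 281 (40.4%, in 255 genes) were in genes whose 5′ end had no peak in any list, 46 in genes with one only in a longer list, 93 in genes with one in 1 replicate and 275 (39.6%, in 253 genes) in genes whose 5′ end had a peak in both. Of all 7292 internal promoters, open or not, 32.4% were in genes whose 5′ end had no peak in any list and 50.9% in genes whose 5′ end had a peak in both. Where the 5′ end had none, 70.8% of the open internal promoters were principal and 69.4% CpG-rich, and 197 were the only open annotated start of the gene. Where the 5′ end was open in both, 52.7% were principal and 49.8% CpG-rich. At the 5′ ends without a peak 249 of 255 in replicate 1 and 239 of 255 in replicate 2 had no interval in the cleavage table, which is not independent of the peaks. Counted per replicate, 41.1% of the genes with a member (37.4 to 44.9%) had a peak at the 5′ end in replicate 1 and 57.5% (54.4 to 60.5%) in replicate 2. Over all 4706 genes with an eligible internal promoter the shares were 50.8% and 60.9%.

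Where a gene had peaks at both places and they were compared, the internal one was more often the weaker. The comparison covered 238 of the 265 such genes in replicate 1 and 523 of 576 in replicate 2. In replicate 1 the internal peak was the stronger in 90 of 238 genes (37.8%), with a median log2 ratio of internal to 5′ end of -0.22. In replicate 2 it was the stronger in 208 of 523 (39.8%), with a median log2 ratio of -0.42. The quartiles were -0.88 and 0.43 in replicate 1 and -1.30 and 0.52 in replicate 2, so genes of either order were common.

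The annotation gives the consequence for the protein. Of the 695 promoters open in both, 229 (32.9%) give a transcript with the same start codon as one that begins at the gene 5′ end, so translation is annotated to begin at the same place. At 269 (38.7%) the start codon lies farther downstream and at 52 farther upstream. For 118 no complete coding transcript starts at the 5′ end, and for 27 the internal transcript is itself incomplete. Promoters with no peak had the same start codon in 29.2% and one farther downstream in 20.8%, and 43.0% were incomplete. In 194 of the 269 with a downstream start codon both coding lengths are known: the length of the internal form was a median of 90.7% of that of the 5′ form (quartiles 64.0 and 99.5%). In 30 it was under 50%, and in 44 the internal form was the longer, so the ratio is not a share retained.

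Among the synaptic adhesion genes, an internal promoter was open in both replicates at Nrxn3, which encodes a presynaptic adhesion receptor. Nrxn3 had an internal signal of 1.50 and 2.80 at a promoter 1089.607 kb downstream, close to its 5′ end with 1.63 and 2.84. A second internal promoter of Nrxn3, 230.523 kb downstream, had a peak in replicate 2 only, with 0.971. Nrxn2, of the same family, had no peak at any of its 3 internal promoters, while its 5′ end had 2.27 and 3.96.

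The postsynaptic and receptor genes added further cases. Dlg4, which encodes the scaffold PSD-95, had an internal signal of 1.90 and 3.32 at 12.5 kb and no peak at its 5′ end. Its internal form has a coding length of 1992 bases against 2301. Ptprs, a receptor phosphatase of synapse formation, had internal peaks of up to 2.59 and 5.49 (percentiles 83.3 and 95.6), below its 5′ end with 3.43 and 7.34. Of the 36 genes of the synaptic list with an eligible internal promoter, 14 were open in both replicates (38.9%), among them Nlgn1, Shank2, Shank3 and Homer1. Over all 4706 genes the share was 631 (13.4%). The members and lists were chosen with results of these data known. Genes of this list have more eligible internal promoters than all genes (median 2 against 1). Over the lists the medians ran from 1.5 for glial genes to 3.5 for cytoskeletal genes. The number of promoters goes with openness: genes with 1 eligible promoter were open in 8.75%, those with 2 in 18.5% and those with 3 or more in 30.9%.

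Cytoskeletal genes had 16 of 36 open in both (44.4%), beside 13.4% over all genes. Their median was 3.5 eligible promoters per gene, against 1 over all genes. Tpm1, a tropomyosin that coats actin filaments, had the strongest of these peaks at 5.33 and 7.74 (percentiles 99.4 and 99.0), 5.44 kb downstream, while its 5′ end had a peak only in replicate 2, with 1.13. The internal start gives a coding length of 753 bases against 978. Dclk1, a microtubule-binding kinase with a shorter kinase form, had an internal peak of 2.09 and 4.46 at 219.364 kb and a 5′ end of 2.23 and 3.84, so the order of both sites differed between the replicates. The internal coding length is 1356 bases against 2268. Pde4dip (myomegalin, a Golgi and centrosome protein) had 2.73 and 4.58 at 120.698 kb, with a coding length of 3354 against 7389 bases. Ank2, the ankyrin B gene, had 2.26 and 3.64 at 90.3 kb, against 0.978 and 1.81 at its 5′ end.

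Ank3 encodes ankyrin G of the axon initial segment and has 12 eligible internal promoters, of which 2 were open in both replicates. At the promoter 307.597 kb downstream the signal was 1.20 and 1.54. At the other, near 135.4 kb, it was 0.931 and 1.20. Another, at 499.358 kb, had a peak only in replicate 2, with 0.932, and the gene 5′ end had none in any list.

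Signalling genes had 18 of 39 open in both (46.2%), beside 13.4% over all genes, with a median of 2 eligible promoters per gene against 1. Pde4d, a cyclic AMP phosphodiesterase with a long series of promoters, has 11 eligible ones, and 3 were open in both. At 666.693 kb the strongest peak had 1.04 and 1.44, at 1236.208 kb 1.07 and 1.37, and at 1476.896 kb 1.12 and 2.98 (sequence above). The last had a log2 ratio of 1.41 between replicates. The promoter at 810.706 kb had a peak in replicate 2 only, with 1.26, and the gene 5′ end one in replicate 1 only, with 0.695. Gnas, the imprinted gene of the stimulatory G protein alpha subunit, had adjacent peaks at 43.4 kb with up to 1.41 and 1.96 and none at the gene 5′ end in the main lists. A second internal promoter of Gnas, with starts at 45.686 and 45.967 kb, had members in replicate 2 only, with 1.85 and 1.66. The latter overlapped a replicate 1 peak of 1.00 that was not a member. The lists do not separate the parental alleles. Dgkz, a diacylglycerol kinase, had 2.75 and 4.98 at 12.2 kb. Iqsec1, an exchange factor for ARF GTPases, had 2.19 and 4.08 at 178.562 kb, and Arhgef7, one for RAC and CDC42, had 1.96 and 3.77 at 30.6 kb.

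In the list of transcription factors and chromatin genes 14 of 57 were open in both (24.6%), beside 13.4% over all genes. The median was 2 eligible promoters per gene against 1. This list also holds splicing factors such as Rbfox1, which is among the 14. Tcf4, a basic helix-loop-helix factor of neuronal development, has 10 eligible internal promoters. The one at 249.632 kb had 2.64 and 4.19 (percentiles 84.1 and 91.4). A second at 5.17 kb had a peak only in replicate 2, with 1.05, and the gene 5′ end had none in any list. Hdac4, a histone deacetylase of neurons and muscle, had 5.14 and 9.40 at 15.4 kb, against 0.848 and 1.98 at its 5′ end. Ets1 had 2.43 and 3.81 at 59.8 kb with no peak at the 5′ end. Auts2, a nuclear regulator of neuronal development, had a pair of peaks in each replicate at 1004.657 kb, with up to 1.23 and 1.87, and 1.12 and 2.42 at its 5′ end. Ppargc1a, a coactivator of mitochondrial genes, had an internal peak only in replicate 2, with 0.738.

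Growth factors and channels were lower in number. Of 22 growth factor and receptor genes 5 were open in both (22.7%, beside 13.4% over all genes): Fgf12, Fgfr1, Sema3a, Sema6d and Robo1. Robo1, the axon guidance receptor of Slit proteins, had 1.50 and 2.25 at 354.843 kb and 0.695 and 1.04 at its 5′ end. Sema6d, a transmembrane semaphorin, had 1.39 and 2.77 at 520.327 kb. Fgfr1 had 1.41 and 2.69 at 5.11 kb, with no peak at its 5′ end. Bdnf, the neurotrophin gene with several promoters, was not open in both at any of 5: replicate 2 had a peak of 1.29 at the start 17.7 kb downstream and replicate 1 one of 0.942 at the start near 18.9 kb. Of 35 genes of the channel and receptor list, which also holds pumps and transporters, 6 were open in both (17.1%, beside the same 13.4%). The highest was Atp2b2, a plasma membrane calcium pump, with 2.60 and 4.84 at 107.932 kb. Scn2a, a sodium channel of the axon, had 1.17 and 1.76.

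Glial and RNA processing genes came near or below the share over all genes (13.4%). Of 14 glial genes with an eligible promoter 1 was open in both (7.14%): Tnr, the matrix protein tenascin-R, with 1.24 and 2.21 at 250.001 kb. At Mbp, the myelin basic protein gene, the single eligible internal promoter had no peak, and the 5′ end had one in replicate 2 only, with 1.56. Of 24 RNA processing genes 3 were open in both (12.5%). Elavl2, a neuronal RNA-binding protein, had 3.46 and 6.39 at 24.3 kb with no peak at the 5′ end. Srrm2, a scaffold of the spliceosome, had 3.40 and 6.51, and Mbnl1, a splicing factor, 1.66 and 2.22.

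**Figure D4:**
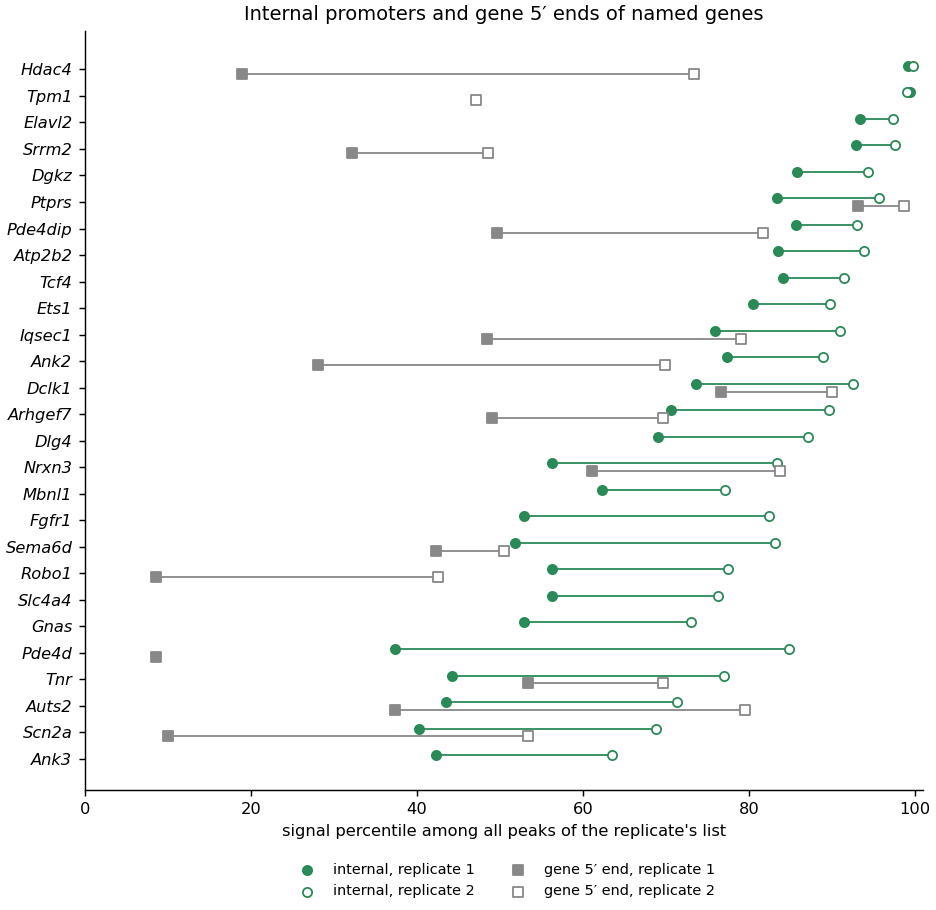
Signal percentile within the list of each replicate (x axis) at the strongest internal promoter open in both replicates (circles) and at the 5′ end (squares), for the 27 genes named by list or for known internal starts that had one, filled for replicate 1 and open for replicate 2. At 11 of the 27 the 5′ end had no peak in either main list, and at 14 it had one in both.

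By mean percentile over the replicates, the highest shared internal peak was at Aktip. Aktip, an AKT-interacting adaptor, had 5.88 and 10.2 at chr8:91134141-91134400 and chr8:91134041-91134400, about 65.5 kb downstream, with no peak at the gene 5′ end. Glo1, the glyoxalase that detoxifies methylglyoxal, had 5.71 and 10.1. Bicdl1, a dynein adaptor, had 5.45 and 10.7, the highest replicate 2 signal among promoters open in both, at a start whose coding length is 246 bases against 1731. Zmynd8, a chromatin reader, had 6.01 and 7.88, the highest in replicate 1. Stag1, a subunit of cohesin, had 4.74 and 9.47. Kat6b, a histone acetyltransferase, had 5.25 and 8.19. Fntb, the beta subunit of farnesyltransferase, had 5.33 and 7.84, against 1.71 and 2.72 at its 5′ end. Zfp638, a zinc finger protein, had 5.22 and 8.48. In 5 of these 10 genes with the highest mean percentile (with Hdac4 and Tpm1) the 5′ end had no peak in any list: Aktip, Glo1, Kat6b, Stag1 and Zmynd8.

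**Figure D5:**
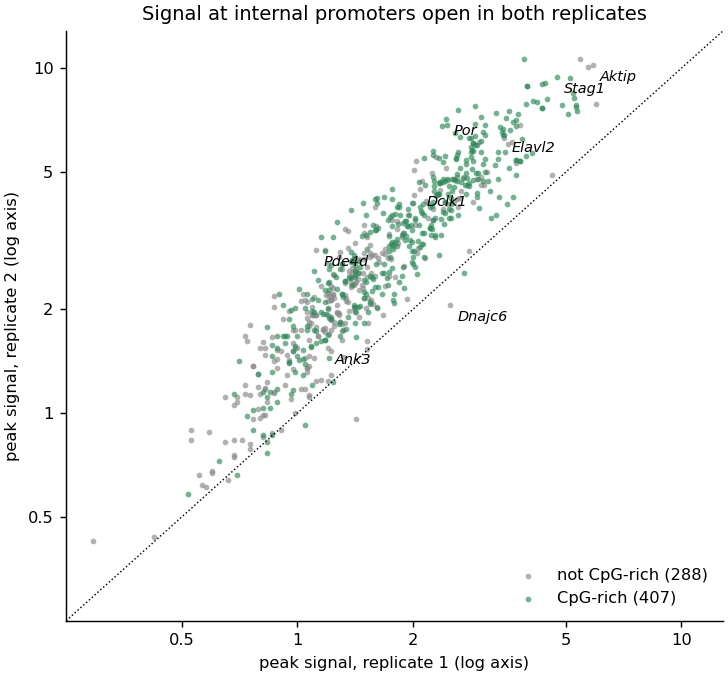
Signal of the strongest peak within 500 bp of each of the 695 internal promoters open in both replicates, in replicate 1 (x axis) and replicate 2 (y axis), both on log axes, coloured by whether the start is CpG-rich (407) or not (288). The dotted line marks equal signal. At 685 of the 695 the replicate 2 value is the higher, and CpG-rich promoters have medians of 1.90 and 3.40 against 1.28 and 2.11 for the others.

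Some genes had several members. In replicate 1, 451 genes had 1 member peak, 158 had 2 and 36 had 3 or more. In replicate 2 the numbers were 653, 254 and 95. Dpp6, an auxiliary subunit of potassium channels, and Nr3c1, the glucocorticoid receptor, had 5 replicate 1 members with a partner each, and Grb10, Numa1, Pde4d and Rreb1 had 4. Several replicate 1 members can have the same partner, so these are not counts of separate sites. The Dpp6 members 87.5 kb downstream all overlap the same replicate 2 peak, with 1.12. Neighbouring Nr3c1 members of 1.25 and 1.28 overlap the same replicate 2 peak, with 2.51. The Nr3c1 peaks lie side by side downstream of the 5′ end (nearest starts at 28.12 to 29.575 kb), with signals from 1.25 to 2.72 in replicate 1. Dpp6 had peaks at 3 promoters, 87.5, 231.996 and 444.772 kb downstream, of which the last was the strongest with 1.11 and 2.58. At Grb10, an imprinted adaptor of insulin signalling, the strongest replicate 1 member, nearest to the start at 12.359 kb, had 1.43 and its replicate 2 partner 2.16.

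The replicates differed at a few strong members. The strongest without a partner in replicate 1 were at Mrpl48 with 3.16, Pcmt1 with 1.92 and Pprc1 with 1.54, and each of these genes had a second member close by that was shared. In replicate 2 they were at Ppp2r3d with 4.76, Kif17 with 4.67 and Ubxn11 with 4.31. The Kif17 peak, at the start of a principal transcript of a kinesin of dendrites, had a counterpart in the longer list of replicate 1, and the other 2 had none. The Ppp2r3d peak, however, directly adjoins a stronger replicate 2 member of 7.65 that was shared, with 4.35 in replicate 1. Among replicate 1 members with a partner the log2 ratio between replicates (replicate 2 over replicate 1) was highest at Ttc34 (1.66), Stag1 (1.63) and Por (1.55), the reductase that serves cytochrome P450 enzymes. At Ttc34 and Stag1 these are for the weaker of 2 replicate 1 peaks that overlap the same replicate 2 peak, and the stronger ones gave 1.33 and 1.00. The ratio was lowest at Dnajc6 (-0.28), which encodes auxilin of clathrin uncoating, Rreb1 (-0.24) and Steap3 (-0.23). At the strongest internal promoter of Rreb1 and of Steap3, the strongest peaks of both replicates gave 0.31 and 0.29. At Dnajc6 the signals were 2.50 and 2.06, against the general direction.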

How the data were processed

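DNase-seq peaks, footprints and cleavage rates were analysed as deposited, for 2 replicates on mm10, per the labels. For each peak the authors deposited a signal, a density of cleavage that they normalized for read depth. The cleavage table deposited by the authors holds a p-value column that is an FDR, up to 0.05. Footprints were used by position only. The sources used here name no aligner, caller or version, and library totals were not analysed here. The main list is the deposited peak list with fewer rows per library, the other is called the longer list.

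Starts, genes, support levels, principal isoforms and coding sequences came from GENCODE M21. Bases were read from GRCm38, which is the same build as mm10. Python 3.11.15 with pandas 2.3.3, numpy 2.4.6 and scipy 1.17.1 was used. With 1 group of 2 replicates no test between conditions exists, so values are given per replicate, with 95% Wilson intervals. Sharing means an overlap of at least 1 bp. CpG was measured in 300 bp and motifs in 200 bp windows. The assignment code was run on simulated peaks placed clear of the 500 bp limit, and it called 2000 of 2000 inside and 0 of 2000 outside. This checks the code only, because the placement fixed the outcome and no peaks near the limit were simulated.

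The members, the 8 gene lists (388 genes), the 14 motifs and the rule for named genes were chosen with earlier results of these data known. Named are 12 genes known for internal starts, the 10 with the highest mean percentile of a shared peak, the 5 with the most shared members (Rreb1 ties with them), the top 3 of each list, the 3 strongest members without a partner per replicate and the 3 highest and 3 lowest log2 ratios, and 1 gene of these is not reported here. Further genes are named only as examples of a count. Alternatives were other windows, distances, transcript filters, overlaps and peak lists, and leaving out each replicate.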

Additional observations from a re-analysis of the deposited data

How the results depend on the processing

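Other windows (250 and 1000 bp), distances, transcript filters, overlaps and peak lists gave 79 alternative values. Of these 67 stayed within 1.5 times the number of peaks, 1 SD between replicates or, for the share of promoters open in both, its counting interval. The mean number of member peaks was 718 when only the top 50% of each list by signal was kept. The share with a footprint (83.4%) became 87.5% with a 250 bp window, 77.4% with the longer lists, 96.6% with the top 50% and 89.5% with replicate 2 shortened to the length of replicate 1. The share of promoters open in both (9.53%) became 8.26% and 11.0% with windows of 250 and 1000 bp, 14.6% without incomplete 5′ ends, 17.5% with support level 1 or 2 only, 14.2% with the longer lists, 5.86% with the top 50% and 8.42% with equal list lengths. Equal lengths brought the shares with a partner to 78.4% in replicate 1 and 76.2% in replicate 2. The cause of these moves was not tested.

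Leaving out each replicate only left the values of the other one, with nothing recomputed. These were 886 to 1493 member peaks, a median percentile of 51.8 to 65.3 and 41.1% to 57.5% of genes with a 5′ end peak. The other ranges were 47.2% to 63.8% CpG-rich, 81.7% to 85.1% with a footprint and 9.81% to 16.6% of promoters with a peak. The share with a partner, 53.2% to 91.5%, needs both replicates. No paired analysis was possible because there is only 1 group. Because SDs over 2 replicates are wide, staying within them says little about stability.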
